A study of Mus musculus with 6 samples.

Results

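The genes described here are 48 mouse genes of the G1/S transition and of DNA replication, out of 55335 genes in the deposited table. They were chosen by name from their known roles, with earlier results of these data known, so shares beside the background are descriptions. All 48 had a row. Testing required an average of 1 FPKM or more across all 6 libraries (FPKM scales the fragments of a gene to its length and to the fragments of the library). Of the 48 members, 45 met this. E2f8, Cdc6 and Pole lay below and are given by their values only. RNA came from RAW 264.7, a mouse macrophage line of wild-type genotype in the labels, and all cells received 200 ng/ml lipopolysaccharide (LPS), a bacterial cell wall component, for 8 h. In 3 libraries the cells also received ultrasound for 10 min within that time, with an intensity of 50 mW/cm², a frequency of 1 MHz, pulses of 200 µs repeated at 1 kHz and a duty cycle of 20%. In the 3 libraries they are compared with, LPS was the only treatment. Cells without LPS were not analysed here, and no label says that the libraries are separate cultures, so each p-value rests on a spread that may be technical.

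A cell commits to division when cyclin D and cyclin E kinases inactivate the retinoblastoma protein and release E2F transcription factors. E2F then switches on genes for licensing, in which the origin recognition complex, CDC6 and CDT1 load the MCM helicase, and for the polymerases, clamp and nucleotide enzymes that copy the DNA. In macrophages, LPS is known to restrain proliferation and to lower cyclin D1. Fewer cells in S phase and less RNA of these genes per cell cannot be told apart in bulk RNA.

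No member passed the threshold of a limma p below 0.05 after Benjamini-Hochberg (BH) adjustment over all 11270 genes tested. The background was 0.0177%, or 2 genes. The smallest adjusted p of a member was 0.21, for cyclin E1 (limma, BH adjustment). The values lay slightly below those of LPS alone in most members. The log2 fold change, the mean log2(FPKM + 1) with ultrasound minus that with LPS alone, was below 0 in 30 of the 45 tested members (66.7%), beside 53.9% of all genes tested. Its median was -0.11 over the members and -0.02 over all genes tested, and it ran from -0.67 for Ccne1 to 0.66 for Fen1.

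Some counts of single members were close to the background and some were not. At an unadjusted limma p below 0.05, 5 members (11.1%) were lower with ultrasound, beside 9.16% of all genes tested. None of the 45 was higher, beside 6.18%. All 3 ultrasound libraries lay below all 3 LPS libraries for 7 members (15.6%), beside 13.4% of all genes. All 3 lay above for 2 members (4.44%), beside 9.80%.

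The libraries carry the numbers 1, 2 and 3 in both groups. Deviations from the group mean correlated across genes at 0.18, 0.44 and 0.41 between libraries numbered 1, 2 and 3, so weakly for number 1. Differences were therefore also taken within pairs, a pairing inferred from these same data. In 25 of the 45 members (55.6%) the ultrasound library was the lower one in 3 of 3 pairs, beside 30.9% of all genes. In 4 members (8.89%) it was the higher one in every pair, beside 24.3%. The median pair difference of the members was -0.07, -0.12 and -0.11 log2 units in pairs 1, 2 and 3, beside -0.01, -0.01 and -0.03 over all genes tested. With the replicate number as a block, 15 members (33.3%) had an unadjusted limma p below 0.05 and a lower value, beside 17.1% of all genes. At that level 1 member (2.22%), Mcm7, was higher, beside 12.6%. Over all genes 13 then passed the adjusted threshold (0.115%), and no member was among them. The smallest adjusted limma p of a member with the block was 0.066.

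**Figure D1:**
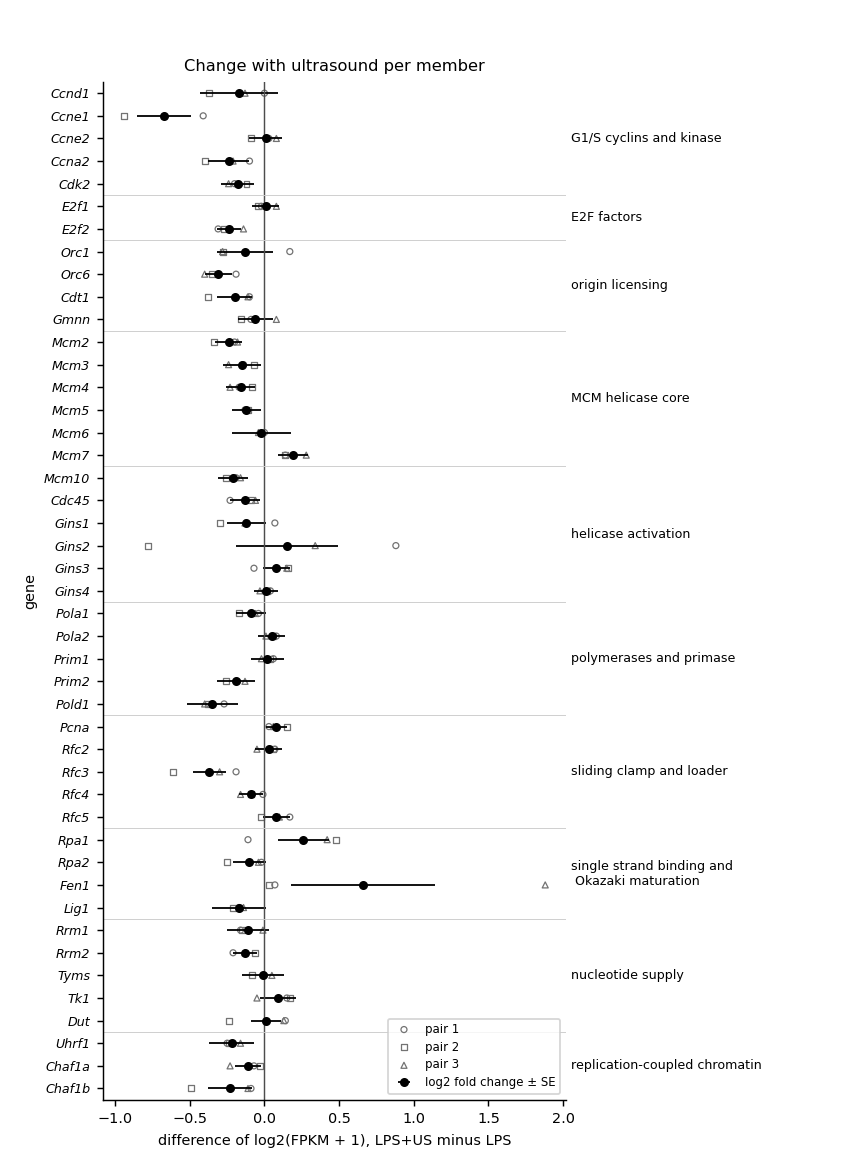
Difference of log2(FPKM + 1), LPS plus ultrasound (LPS+US) minus LPS, for the 45 tested members by role. Black points are log2 fold changes with the standard error of the limma fit, and open symbols are the differences within the same-numbered pairs. Most points lie a little left of 0, Ccne1 lies farthest left at -0.67, and Fen1 farthest right at 0.66 through pair 3 alone.

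LPS library 2 stood apart for these genes. It held the highest of the 6 values in 25 of the 45 tested members (55.6%), beside 27.6% of all genes tested. Among the ultrasound libraries, library 2 was the highest in 55.6% of the members and in 45.4% of all genes. The FPKM of the 48 members summed to 301, 325 and 328 in ultrasound libraries 1, 2 and 3, against 313, 355 and 339 in LPS libraries 1, 2 and 3. The sums overlap, and LPS library 2 is the highest. Without LPS library 2 the median was -0.06 for the members and -0.016 for all genes, with 25 of 43 tested members below 0. Without both libraries numbered 2 the medians were -0.07 and -0.021, with 27 of 43 members below 0. With all libraries 30 of 45 members (66.7%) lay below 0, beside 53.9% of all genes. The share of all genes was not taken in the fits without library 2, so their member counts have no background of their own. The part of library 2 in the result was otherwise not tested. The FPKM of all genes summed to 278871 to 292200 per library, and the number of fragments per library is unknown. An average of 1 FPKM was reached by all 11 macrophage markers, and by none of 8 skeletal muscle, 6 fibroblast, 6 T and B cell and 4 endothelial markers. The endothelial markers summed to 0.702 to 1.05 FPKM with ultrasound and 0.304 to 0.588 FPKM with LPS alone, and their part in the result was not tested.

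**Figure D2:**
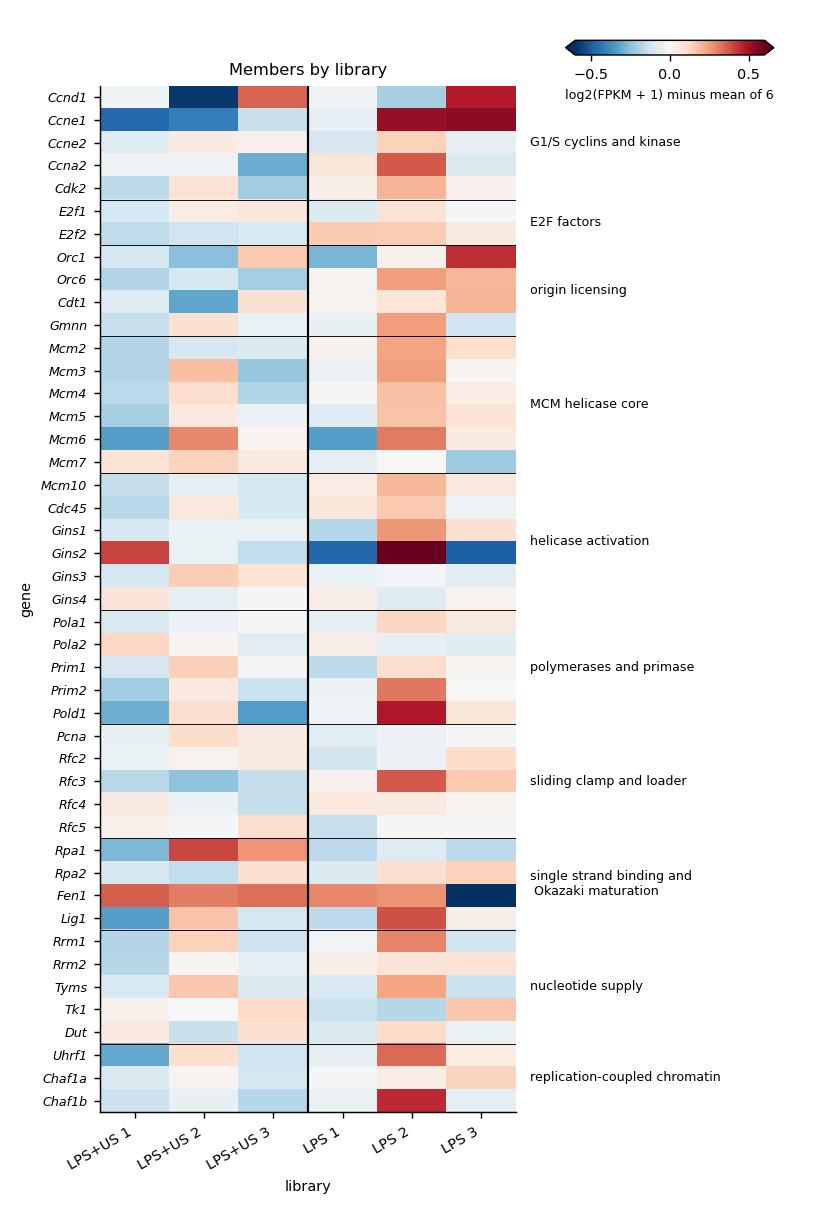
Each row is a tested member and each column a library. Colour gives log2(FPKM + 1) minus the mean of the 6 libraries, and values past 0.6 in either direction take the end colour. LPS library 2 is the highest column for 25 of the 45 members, Fen1 is low in LPS library 3 alone, and Gins2 differs widely between libraries of a group.

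Among the cyclins and kinase that drive G1/S, Ccne1 stood out by the size of its difference. Ccne1 (ENSMUSG00000002068) encodes cyclin E1, which activates CDK2 at the start of S phase. It had 4.49, 4.70 and 5.90 FPKM in ultrasound libraries 1, 2 and 3, against 6.32, 9.90 and 9.98 FPKM in LPS libraries 1, 2 and 3. Every ultrasound library was below every LPS library, with LPS library 1 the nearest to the ultrasound libraries. The mean was 5.03 ± 0.76 FPKM with ultrasound and 8.73 ± 2.09 FPKM with LPS alone (SD, n = 3 each), or 57.6% of the LPS mean. The log2 fold change was -0.67 ± 0.18 (SE), short of the threshold (limma, BH adjusted p = 0.21, or 0.066 when blocked by replicate). With libraries left out it ran from -0.87 to -0.54.

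The second E-type cyclin gene did not differ beyond its spread. Ccne2 had 1.06, 1.24 and 1.21 FPKM with ultrasound, against 1.02, 1.38 and 1.09 FPKM with LPS alone, close to the limit for testing. Ccna2, the gene of the S-phase cyclin A2, had 3.03, 3.03 and 2.35 FPKM with ultrasound, against 3.33, 4.31 and 2.87 FPKM with LPS alone. Its groups overlap, although the ultrasound library was the lower one in every pair. Cdk2, the kinase partner of cyclins E and A, had 5.68, 6.92 and 5.45 FPKM with ultrasound, against 6.66, 7.59 and 6.59 FPKM with LPS alone. Here too the ultrasound value was the lower one in every pair while the groups overlapped. The log2 fold changes were -0.24 ± 0.14 for Ccna2 and -0.18 ± 0.11 for Cdk2 (limma, BH adjusted p = 0.46 and 0.44). Ccna2 came to -0.11 without LPS library 2, and Cdk2 to -0.27 without ultrasound library 2.

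Ccnd1, which encodes the mitogen-responsive cyclin D1, was the second most abundant member after Pcna. It had 28.8, 19.3 and 37.6 FPKM with ultrasound, against 28.9, 25.4 and 41.2 FPKM with LPS alone. The groups overlapped, with library 2 the lowest and library 3 the highest in each. The log2 fold change was -0.17 ± 0.26. It was 0.08 without ultrasound library 2 and 0.03 without LPS library 3.

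Of the E2F genes, E2f1 and E2f2 encode activators and E2f8 an atypical repressor. E2f2 (ENSMUSG00000018983) had 3.34, 3.44 and 3.53 FPKM with ultrasound, against 4.38, 4.36 and 4.0 FPKM with LPS alone. The groups did not overlap and the libraries within each were close. Its log2 fold change was -0.24 ± 0.08 (limma, BH adjusted p = 0.26). E2f1 had 8.33, 9.37 and 9.54 FPKM with ultrasound, against 8.48, 9.63 and 8.97 FPKM with LPS alone. Its group means were 9.08 ± 0.655 and 9.03 ± 0.579 FPKM, a difference smaller than the spread within either group. E2f8 averaged 0.879 ± 0.204 FPKM with ultrasound and 0.90 ± 0.219 FPKM with LPS alone.

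All 4 tested licensing members had log2 fold changes below 0, although Orc1 reached 0.06 without LPS library 3 and Gmnn 0.05 without LPS library 2. Orc6 (ENSMUSG00000031697), for the smallest subunit of the origin recognition complex, had 6.61, 7.04 and 6.46 FPKM with ultrasound, against 7.69, 9.23 and 8.87 FPKM with LPS alone. All ultrasound libraries were below all LPS libraries. Its log2 fold change was -0.31 ± 0.09 (limma, BH adjusted p = 0.22, or 0.077 when blocked by replicate). In Orc1, the gene of the ATPase subunit, the groups overlapped at 5.35 ± 0.921 FPKM with ultrasound and 6.04 ± 1.77 FPKM with LPS alone.

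Cdt1, which helps load the helicase and was the most abundant licensing member, had 13.5, 11.3 and 15.3 FPKM with ultrasound, against 14.5, 15.1 and 16.6 FPKM with LPS alone. The ultrasound value was the lower one in each pair, with overlapping groups and a log2 fold change of -0.20 ± 0.12, or -0.09 without ultrasound library 2. Gmnn, for geminin, the inhibitor of CDT1, averaged 7.68 ± 0.698 FPKM with ultrasound and 8.08 ± 1.26 FPKM with LPS alone. Cdc6, for the loading factor that joins origin complex and helicase, was low throughout, at 0.647 ± 0.0944 FPKM with ultrasound and 0.573 ± 0.0897 FPKM with LPS alone.

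The 6 MCM proteins form 1 ring in equal copies, but their RNAs differed in level and in direction. Mcm3 was the most abundant at 17.6 ± 3.00 FPKM with ultrasound and 19.5 ± 2.23 FPKM with LPS alone. Mcm6, Mcm5, Mcm4 and Mcm2 followed in the order of their means, and Mcm7 was the least abundant. Mcm2 (ENSMUSG00000002870) had 6.48, 6.87 and 6.97 FPKM with ultrasound, against 7.58, 8.94 and 8.03 FPKM with LPS alone. Its groups did not overlap, and its log2 fold change was -0.24 ± 0.09 (limma, BH adjusted p = 0.28).

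Mcm3 had 16.2, 21 and 15.6 FPKM with ultrasound, against 17.9, 22.1 and 18.6 FPKM with LPS alone. Within each pair the ultrasound library was the lower one, but library 2 exceeded the others in both groups, so the groups overlapped. Mcm4 and Mcm5 showed the same arrangement, with log2 fold changes of -0.16 ± 0.10 and -0.12 ± 0.10. With libraries left out, the values ran from -0.28 to -0.06 for Mcm3, from -0.25 to -0.11 for Mcm4 and from -0.19 to -0.05 for Mcm5. For Mcm6 the pairs differed by at most 0.04 log2 units, while the libraries of a group ranged from 9.91 to 15.7 FPKM with ultrasound and from 9.88 to 16 FPKM with LPS alone.

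Mcm7 (ENSMUSG00000029730) was the MCM member with the opposite sign. It had 3.11, 3.28 and 3.05 FPKM with ultrasound, against 2.73, 2.89 and 2.34 FPKM with LPS alone. Every ultrasound library was above every LPS library. On the log2 scale the difference was 0.19 ± 0.10, short of the threshold (limma, BH adjusted p = 0.40, or 0.17 when blocked by replicate), and it was above 0 in each alternative that tested the gene, with 0.12 to 0.23 over left-out libraries. Exons of Mcm7 overlap those of Ap4m1 on the opposite strand over 7.25% of their bases, and the microRNA genes Mir25 and Mir93 lie within it. Whether the library kit kept strand is not given, so reads of such partners cannot be told apart.

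**Figure D3:**
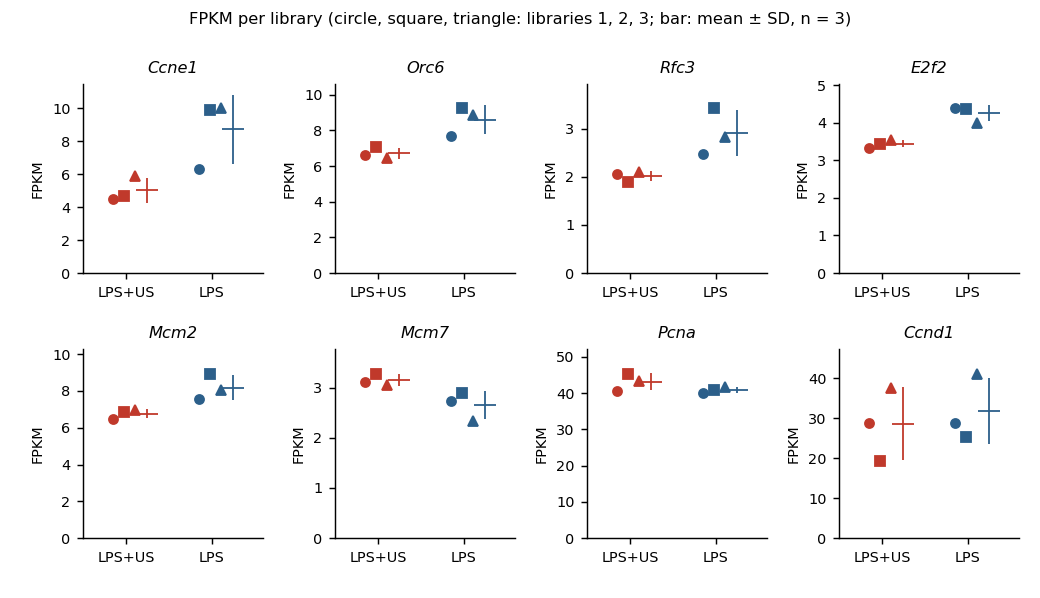
FPKM of 8 members in each library, with LPS plus ultrasound (LPS+US, red) left of LPS (blue). Circles, squares and triangles are libraries 1, 2 and 3, and bars are mean ± SD with n = 3. The groups do not overlap for Ccne1, Orc6, Rfc3, E2f2 and Mcm2, where ultrasound is lower, and for Mcm7, where it is higher. They overlap for Pcna and Ccnd1.

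Helicase activation joins CDC45 and the GINS complex to the MCM ring, with MCM10 needed for firing. Mcm10 lay at the limit for testing with 0.84, 0.96 and 0.89 FPKM with ultrasound, against 1.10, 1.34 and 1.12 FPKM with LPS alone. Its groups did not overlap, with a log2 fold change of -0.21 ± 0.10 that this scale understates for so low a gene (limma, BH adjusted p = 0.37). Cdc45 averaged 2.49 ± 0.288 FPKM with ultrasound and 2.81 ± 0.245 FPKM with LPS alone, and the ultrasound value was the lower one in each pair.

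The GINS subunit genes differed from each other in level. Gins4 had 16.8, 15.2 and 15.8 FPKM with ultrasound, against 16.3, 15 and 16.1 FPKM with LPS alone, and its groups overlapped almost entirely. Gins3 averaged 6.94 ± 0.712 FPKM with ultrasound and 6.48 ± 0.142 FPKM with LPS alone, and Gins1 1.02 ± 0.0521 and 1.21 ± 0.325 FPKM. Gins2, singled out after its values were seen, had 2.59, 1.64 and 1.45 FPKM with ultrasound, against 0.95, 3.53 and 0.93 FPKM with LPS alone. The 3 pairs differed by 0.88, -0.78 and 0.34 log2 units, so they do not share a direction. Exons of Gse1 on the opposite strand cover 67.3% of the exonic bases of Gins2, and Gse1 had 6.58 to 8.71 FPKM with ultrasound, against 7.40 to 11.3 FPKM with LPS alone.

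Among polymerase and primase genes, Pold1, for the catalytic subunit of polymerase delta, had the lowest log2 fold change. It had 1.75, 2.60 and 1.67 FPKM with ultrasound, against 2.32, 3.70 and 2.53 FPKM with LPS alone. The groups overlapped, since library 2 was high in both, while each pair differed in 1 direction, by -0.27, -0.38 and -0.40 log2 units. Its log2 fold change was -0.35 ± 0.17 (limma, BH adjusted p = 0.38, or 0.075 when blocked by replicate). It was -0.20 without LPS library 2 and -0.49 without ultrasound library 2.

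Pola2, an accessory subunit gene of polymerase alpha, was the most abundant of the group. It had 6.05, 5.51 and 5.19 FPKM with ultrasound, against 5.65, 5.25 and 5.15 FPKM with LPS alone, with overlapping groups. Its catalytic partner Pola1 averaged 0.968 ± 0.0593 FPKM with ultrasound and 1.09 ± 0.137 FPKM with LPS alone. The primase subunit genes Prim1 and Prim2 had log2 fold changes of 0.02 ± 0.11 and -0.19 ± 0.13. Pole, for the catalytic subunit of polymerase epsilon, was below the limit for testing, with 0.57, 0.71 and 0.65 FPKM with ultrasound, against 0.81, 0.93 and 0.74 FPKM with LPS alone, which did not overlap.

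Pcna, for the sliding clamp that holds polymerases on DNA, was the most abundant of all members. It had 40.7, 45.4 and 43.4 FPKM with ultrasound, against 40.0, 40.9 and 41.7 FPKM with LPS alone. The groups overlapped, with ultrasound the higher one in each pair and a log2 fold change of 0.08 ± 0.07 (limma, BH adjusted p = 0.61). The annotated copy Pcna-ps2 had 5.93 to 6.35 FPKM with ultrasound and 5.91 to 6.63 FPKM with LPS alone, so the division of reads between the copies is uncertain.

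Among the clamp loader genes, 1 had groups that did not overlap. Rfc3 (ENSMUSG00000033970) had 2.05, 1.90 and 2.10 FPKM with ultrasound, against 2.48, 3.42 and 2.82 FPKM with LPS alone. Its groups did not overlap, with LPS library 2 the highest. The mean with ultrasound was 69.4% of the LPS mean and the log2 fold change -0.37 ± 0.11 (limma, BH adjusted p = 0.24), or -0.25 without both libraries numbered 2. The other loader genes Rfc2, Rfc4 and Rfc5 had log2 fold changes of 0.03 ± 0.09, -0.09 ± 0.08 and 0.08 ± 0.09, each with overlapping groups.

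Rpa1, for the large subunit of the single-strand binding protein RPA, had 10.1, 16.7 and 15.1 FPKM with ultrasound, against 11, 11.7 and 11 FPKM with LPS alone. Ultrasound library 1 lay below all LPS libraries and the other two ultrasound libraries above them. The log2 fold change was 0.26 ± 0.17, 0.13 without ultrasound library 2, 0.46 without ultrasound library 1 and -0.04 with limma's sample weights. Rpa2 averaged 4.99 ± 0.555 FPKM with ultrasound and 5.43 ± 0.513 FPKM with LPS alone. Lig1, for the ligase that joins Okazaki fragments, averaged 3.36 ± 0.766 and 3.94 ± 0.948 FPKM, lower with ultrasound in each pair.

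Fen1, for the flap nuclease of Okazaki fragments, had the highest log2 fold change of all members through 1 library, and was singled out after its values were seen. It had 10.5, 10.1 and 10.3 FPKM with ultrasound, against 9.97, 9.84 and 2.06 FPKM with LPS alone. LPS libraries 1 and 2 were close to the ultrasound libraries, and LPS library 3 was far below all others. Its log2 fold change was 0.66 ± 0.48, and 0.05 without LPS library 3. The antisense gene Gm10143 overlaps 78.8% of the exonic bases of Fen1 and was highest in that library, with 0.567 to 0.803 FPKM with ultrasound, against 0.566, 0.612 and 1.85 FPKM in LPS libraries 1, 2 and 3. Its part in the Fen1 value was not tested.

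For the genes that supply deoxynucleotides, log2 fold changes lay between -0.13 and 0.09. Rrm2, for the S-phase subunit of ribonucleotide reductase, had 6.10, 7.09 and 6.72 FPKM with ultrasound, against 7.22, 7.44 and 7.46 FPKM with LPS alone. The groups did not overlap, but ultrasound library 2 nearly reached LPS library 1. The log2 fold change was -0.13 ± 0.08 (limma, BH adjusted p = 0.46). The large subunit gene Rrm1 had -0.11 ± 0.14, the thymidylate synthase gene Tyms -0.01 ± 0.14, the thymidine kinase gene Tk1 0.09 ± 0.12 and the dUTPase gene Dut 0.01 ± 0.10.

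In the group that restores chromatin behind the fork, each of the 3 members had the lower value with ultrasound in 3 of 3 pairs. Uhrf1, which directs DNA methylation to new strands, had 3.45, 4.90 and 4.07 FPKM with ultrasound, against 4.30, 5.98 and 4.68 FPKM with LPS alone. The groups overlapped because library 2 was the highest in both. Its log2 fold change was -0.22 ± 0.15, and those of the chromatin assembly factor genes Chaf1a and Chaf1b were -0.11 ± 0.09 and -0.23 ± 0.15 (limma, BH adjusted p = 0.49, 0.58 and 0.48). Without LPS library 2 they came to -0.10 for Uhrf1 and -0.06 for Chaf1b. With libraries left out they ran down to -0.32 for Uhrf1 and for Chaf1b, and from -0.15 to -0.05 for Chaf1a. Exons of Ubxn6 on the opposite strand cover 52.5% of the exonic bases of Chaf1a. Ubxn6 had 6.95 to 7.60 FPKM with ultrasound, against 6.08 to 7.75 FPKM with LPS alone, and its part in the Chaf1a values was not tested.

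Genes of the same processes outside the 48 were set beside them, with the comparison and samples shared. Of 49 other replication genes, 40 were tested and none passed the adjusted threshold. Their median log2 fold change was -0.11, or -0.08 without LPS library 2, and 31 (77.5%) lay below 0, beside 53.9% of all genes. At an unadjusted limma p below 0.05, 4 (10%) were lower, beside 9.16% of all genes, and none was higher, beside 6.18%. When blocked by replicate, 11 (27.5%) were lower, beside 17.1%, and 1 (2.5%) was higher, beside 12.6%. Recql4, for a helicase of origin firing, had 2.28 ± 0.384 FPKM with ultrasound and 3.77 ± 0.363 FPKM with LPS alone. The mismatch repair gene Msh6 averaged 5.40 ± 0.901 FPKM with ultrasound and 7.97 ± 0.786 FPKM with LPS alone. For Cdca7, a chromatin gene, the means were 3.02 ± 0.235 and 4.13 ± 0.599 FPKM. In each of these the groups did not overlap, and none passed (limma, BH adjusted p = 0.18, 0.20 and 0.25).

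Of 26 other G1/S regulators 20 were tested and none passed. Their log2 fold changes had a median of 0.01, and 9 (45%) lay below 0, beside 53.9% of all genes. Before adjustment, 2 (10%) were lower and 1 (5%) higher at a limma p below 0.05, beside 9.16% and 6.18% of all genes. When blocked by replicate, 2 (10%) were lower and 2 (10%) higher, beside 17.1% and 12.6%. Cdkn1b, for the CDK inhibitor p27, had 13.5, 14.2 and 13.6 FPKM with ultrasound, against 18.3, 20.2 and 23.5 FPKM with LPS alone. The groups stood well apart, at -0.55 ± 0.10 log2 units (limma, BH adjusted p = 0.14, or 0.062 when blocked by replicate). With limma's sample weights the adjusted p was 0.035, so Cdkn1b passed in that fit. In all, 223 of 11270 genes passed there, Msh6, Bub1b and Cenpa among them, against 2 in the main fit.

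E2f5, an E2F gene linked to repression, averaged 12 ± 0.906 FPKM with ultrasound and 16.9 ± 0.609 FPKM with LPS alone. E2f6, another repressor gene, averaged 2.54 ± 0.112 FPKM with ultrasound and 1.68 ± 0.544 FPKM with LPS alone. The groups did not overlap for either, and neither passed (limma, BH adjusted p = 0.14 and 0.28). The p53-responsive inhibitor gene Cdkn1a had 29.7 ± 3.62 FPKM with ultrasound and 29.4 ± 6.05 FPKM with LPS alone. Myc was below the limit for testing at 0.298 ± 0.176 and 0.702 ± 0.427 FPKM, and the inhibitor genes Cdkn2a and Cdkn2b were listed at 0 in all 6 libraries.

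All 27 tested mitosis genes of 31 listed had a log2 fold change below 0, with a median of -0.23 beside -0.11 for the members. LPS library 2 was the highest of the 6 libraries in 20 of the 27 (74.1%). Without it the median was -0.16 and 23 of 25 tested genes lay below 0, and without both libraries numbered 2 it was -0.24, with 25 of 25. The median was -0.23, -0.31 and -0.21 within pairs 1, 2 and 3. At an unadjusted limma p below 0.05, 6 (22.2%) were lower, beside 9.16% of all genes, and none was higher, beside 6.18%. When blocked by replicate, 14 (51.9%) were lower, beside 17.1%, and none was higher, beside 12.6%. None passed the adjusted threshold. The proliferation marker gene Mki67 had 5.54, 6.53 and 4.71 FPKM with ultrasound, against 6.94, 7.32 and 5.88 FPKM with LPS alone. The checkpoint kinase gene Bub1 averaged 4.29 ± 0.496 FPKM with ultrasound and 6.86 ± 1.61 FPKM with LPS alone (log2 fold change -0.55 ± 0.16, limma, BH adjusted p = 0.22). Bub1b, for another checkpoint kinase, averaged 12.9 ± 0.616 FPKM with ultrasound and 22.1 ± 2.69 FPKM with LPS alone. Cenpa, for the centromeric histone, averaged 3.84 ± 0.0182 FPKM with ultrasound and 6.18 ± 0.5 FPKM with LPS alone. The log2 fold changes were -0.73 ± 0.10 for Bub1b and -0.57 ± 0.09 for Cenpa (limma, BH adjusted p = 0.13 for each). The difference between the lists was not tested.

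**Figure D4:**
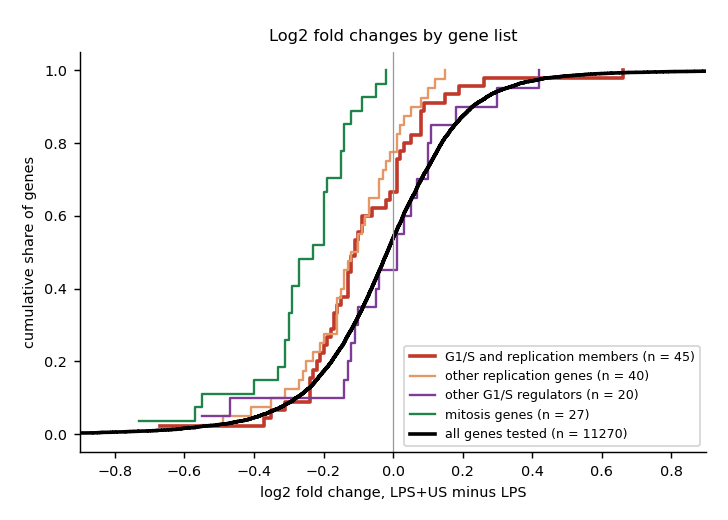
Cumulative share of tested genes (vertical axis) by log2 fold change, LPS plus ultrasound (LPS+US) minus LPS (horizontal axis), for each gene list and for all 11270 genes tested. The members cross 0 at 66.7% and all genes at 53.9%, and the mitosis curve lies farthest left with all 27 genes below 0.

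E2F binds short GC-rich words in the promoters of replication genes, while many mitotic promoters carry a cell cycle homology region (CHR) and CCAAT boxes. RefSeq promoter windows (build GRCm38.p6, 250 bases before to 50 after each start) matched 37 of the 48 members by symbol. They were searched on both strands for 4 E2F words, TTTCCCGC, TTTGGCGC, TTTCGCGC and TTTGCCGC. Of the 37 members, 15 held at least 1 (40.5%), beside 4.97% of the 7946 tested genes with a window and 2.60% of all 27025 genes with a window. The share is not particular to the members. With a window, 13 of 41 other replication genes (31.7%) and 6 of 20 other G1/S regulators (30%) held at least 1. A gene with several windows was counted if any held a word.

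The mitosis genes showed the reverse arrangement. An E2F word was found in 3.85% of the 26 mitosis genes with a window and the CHR word TTTGAA in 73.1%, while 16.2% of the members and 14.2% of tested genes held the CHR word. A CCAAT box (CCAAT) was in 62.2% of the members, 80.8% of the mitosis genes and 43.3% of tested genes. Of the tested members with a window, 14 held an E2F word, and 12 of these had a log2 fold change below 0, with a median of -0.16. Among the 21 without a word 12 lay below 0, with a median of -0.09, beside 53.9% and -0.02 over all genes tested. The difference between members with and without a word was not tested, and other genes were not split in this way. The window of Ccne1 held none of the 4 words.

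The following 70-base stretches before the start show where the words lie in MCM genes of both signs and in 3 members that were lower in each pair. Capitals mark E2F words, each stretch reads 5′ to 3′ on the strand of the gene, and where the capitals run for 12 bases a word of each strand overlaps the other. They come from chr8:75109327-75109396 (plus strand) for Mcm5, chr1:128359777-128359846 (minus) for Mcm6, chr5:138172010-138172079 (minus) for Mcm7, chr5:151651209-151651278 (minus) for Rfc3, chr17:56304097-56304166 (plus) for Uhrf1 and chr10:128705153-128705222 (minus) for Cdk2.
Mcm5: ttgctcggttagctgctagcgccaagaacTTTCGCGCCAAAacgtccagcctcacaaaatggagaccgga
Mcm6: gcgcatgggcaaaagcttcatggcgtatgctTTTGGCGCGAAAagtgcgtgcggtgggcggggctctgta
Mcm7: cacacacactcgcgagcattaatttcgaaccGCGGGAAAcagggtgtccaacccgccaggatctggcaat
Rfc3: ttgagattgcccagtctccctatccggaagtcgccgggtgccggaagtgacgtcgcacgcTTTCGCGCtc
Uhrf1: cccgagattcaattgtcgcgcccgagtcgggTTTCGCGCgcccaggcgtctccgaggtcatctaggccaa
Cdk2: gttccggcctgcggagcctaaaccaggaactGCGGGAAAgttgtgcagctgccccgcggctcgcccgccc
Mcm5 and Mcm6, at -0.12 and -0.02 log2 units, share the overlapping arrangement, and Mcm6 holds another word between its stretch and its start. Mcm7, the MCM gene above 0, holds a single word in its stretch and another after its start. Rfc3 also holds a single word in its stretch, and another that begins at its start. A match of letters is a description and does not show binding.

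**Figure D5:**
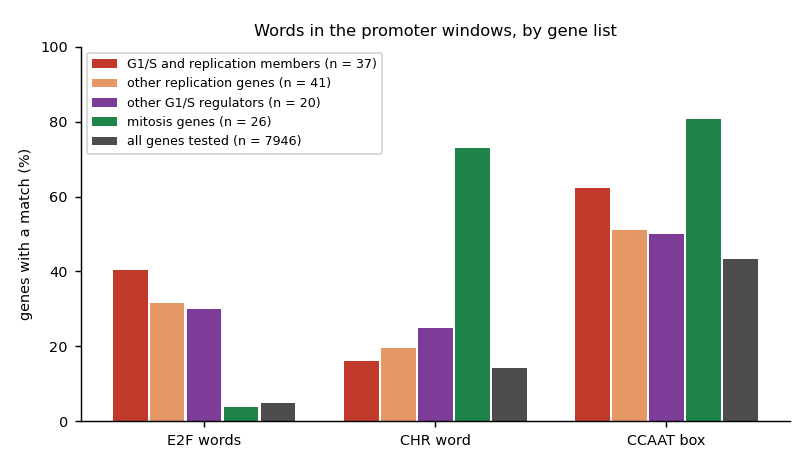
Share of genes (per cent, vertical axis) whose RefSeq promoter window holds an E2F word, the CHR word or a CCAAT box on either strand, by gene list. E2F words are at 40.5% of the members, 31.7% of other replication genes, 30% of other G1/S regulators and 3.85% of mitosis genes. The CHR word is at 16.2% of the members and 73.1% of mitosis genes.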

How the data were processed

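Oligo(dT)-enriched RNA was sequenced from both fragment ends (Illumina NovaSeq), per the labels. The authors deposited FPKM values for 55335 genes, all with mouse Ensembl identifiers, and 1 column per library. The series' design names RAW 264.7 cells, whereas the extraction text describes rat muscle and a rat build stands in the submitters' processing notes. Aligner, quantifier, annotation and build for mouse were not given in the sources used here. Each column was assigned to the title with its initial letter and number, and symbols came from GENCODE M21 (55154 identifiers matched). The table holds no counts, so the depth is unknown and an exact 0 can be a failed estimate. Pearson correlations between libraries, taken across genes, ran from 0.962 to 0.989.

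Genes averaging 1 FPKM or more were compared on log2(FPKM + 1) by limma 3.58.1 (R 4.3.3), with variance trend and robust moderation, two-sided, and Benjamini-Hochberg adjustment over all 11270 genes (threshold 0.05). For low genes this scale understates a change. The fit was tested on simulated data. Same-numbered libraries had deviations that correlated at 0.18, 0.44 and 0.41 across genes, against -0.40 to 0.057 for other pairs, so the numbers were taken to pair them, and the fit with the replicate number as a block is an alternative. The members and the gene lists were chosen with earlier results of these data known. Values in every library are given for the 12 members with the smallest p, the most abundant of each role group, Ccnd1, E2f1 and Pcna, and means for up to 3 genes of each other list with the smallest p, Cdkn1a, Myc and Mki67. Further members were named after their values were seen. Exon overlaps came from GENCODE M21. Opposite-strand exons also cover 23.4% of the exonic bases of Ccnd1 (LTO1), 17.4% of Ccne2 (Ints8) and 15.1% of Rfc2 (Lat2). They cover 12.65% of Rfc4 (Eif4a2), 12.5% of Ccna2 (Exosc9), 11.2% of E2f8 (Gm2788), 10.8% of Orc1 (Gm12743) and 10.7% of Rfc5 (Wsb2). Further overlaps were smaller.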

Additional observations from a re-analysis of the deposited data

How the results depend on the processing

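No member passed the adjusted threshold under any alternative run. With the replicate block 13 genes passed over all genes, against 2 without it. At an unadjusted limma p below 0.05, 15 members against 5 were lower (33.3% against 11.1%), beside 17.1% against 9.16% of all genes. The count of genes past the threshold was 1 with a filter of 5 FPKM, 5 with equal library sums, 223 with sample weights, 8 at an adjusted p below 0.1, and 2 to 8 with libraries left out. Lower members at an unadjusted p below 0.05 numbered 13 with sample weights (2 were higher) and 1 to 9 with libraries left out. Over all genes, in either direction, 2945 of 11270 reached that level with sample weights, against 1729 in the main fit. With libraries left out 945 to 1866 did. Without both libraries numbered 3, 945 genes reached it and 1 member was lower. Without ultrasound library 2 these were 1771 and 9, and without LPS library 1 they were 1866 and 4. All genes were not split by direction in the fits with sample weights or with libraries left out, so these member counts have no matching background. The number of members below 0 was 15 of 23 tested with the 5 FPKM filter, and 25 to 36 with libraries left out. The median of the members was -0.15 with a pseudocount of 0.1, -0.08 with quantile normalization and -0.15 to -0.06 with libraries left out. Without LPS library 2, 8 genes passed and the median was -0.06. The causes were not tested, except that the stricter filter tests fewer genes. No scaling moved the median of all genes by over 0.1.

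Some signs turned, also those of Rpa1 (0.26 in the main fit), Ccnd1 (-0.17), Gins2 (0.15) and Orc1 (-0.13). With equal library sums Ccne2, E2f1, Gins4 and Dut each had -0.01. Sample weights gave Ccne2 -0.01, E2f1 -0.05, Gins3 -0.03, Prim1 -0.02, Rfc2 0.00, Rpa1 -0.04 and Cdkn1a -0.02, and quantile normalization gave Tyms 0.01. With libraries left out, values ran from -0.39 to 0.08 for Ccnd1, -0.04 to 0.08 for Ccne2, -0.03 to 0.06 for E2f1, -0.30 to 0.06 for Orc1, -0.13 to 0.05 for Gmnn and -0.19 to 0.14 for Mcm6. They ran from -0.22 to 0.61 for Gins2, -0.03 to 0.04 for Gins4, -0.05 to 0.08 for Prim1, -0.02 to 0.09 for Rfc2, -0.20 to 0.01 for Rrm1, -0.09 to 0.10 for Tyms, -0.06 to 0.14 for Dut and -0.12 to 0.17 for Cdkn1a. Without a sign change, they ran from -0.19 to -0.08 for Cdc45, -0.26 to -0.08 for Prim2, -0.30 to -0.03 for Lig1, -0.18 to -0.03 for Rpa2, 0.04 to 0.12 for Pcna, -0.18 to -0.08 for Rrm2, 0.03 to 0.19 for Tk1, 0.25 to 0.58 for E2f6 and -0.33 to -0.13 for Mki67. The medians of the mitosis and other replication genes without libraries numbered 2 were added after seeing the data. With sample weights Cdkn1b, Msh6, Bub1b and Cenpa passed. Each group has 3 libraries, and the p-values reflect their spread only.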
